A study of Mus musculus with 3 samples.

Results

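DNA replication genes were followed through 3 states of delayed implantation, the arrest in which a mouse blastocyst stays unattached in the uterus until estrogen returns. The set was 48 genes fixed by name, covering origin licensing, origin firing, DNA synthesis and the E2F activators, among 31510 genes in the deposited tables. Of the 48, 32 were found by the gene symbol in the tables and 16 by Ensembl ID, and 47 reached 1 RPKM (exon reads per kilobase of exon, scaled to the library's total) in at least 1 library. E2f2 was the member below that limit. All 3 groups came from pregnant CD-1 mice (age 2 months in the labels) that were ovariectomized on day 4 and given daily progesterone, 2 mg each time, on days 5 to 7. The dormant group was taken on day 8 by flushing the uteri, and the labels name no estradiol for it. Estradiol (E2, dose not given in the labels) was injected on day 7, and mothers were killed 6 h later for reactivating and 12 h later for reactivated blastocysts. Each state was 1 library from a pool of more than 3000 blastocysts, so no difference between states has a replicate check, and the day and time of collection cannot be told apart from the state.

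Eukaryotic cells prepare replication in steps. The origin recognition complex binds DNA, and CDC6 and CDT1 then help it to load the ring-shaped MCM helicase, which is called licensing. At the start of S phase the kinase CDC7, with its activator DBF4, and cyclin-dependent kinases bring in CDC45 and the GINS complex to switch the helicase on. Polymerases, the sliding clamp PCNA and its loader RFC then copy the DNA, and many of these genes are classical targets of E2F transcription factors. Dormant blastocysts are known for little DNA synthesis, which resumes when the delay ends.

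The libraries held 9298675 exon reads in the dormant, 10364607 in the reactivating and 12941447 in the reactivated state, and the 48 genes took 19565, 23409 and 43015 of them, that is 0.210%, 0.226% and 0.332%. The mitochondrial ribosomal RNA mt-Rnr2 alone took 17.8%, 18.6% and 24.3% of exon reads, and its part in the differences below was not tested. All 5 trophectoderm, 3 inner cell mass and 3 primitive endoderm markers reached 1 RPKM, with summed levels of 1132, 1118 and 834.97 RPKM for trophectoderm, 116, 163 and 155 for inner cell mass and 35.3, 32.6 and 24.2 for primitive endoderm in the dormant, reactivating and reactivated states. The trophectoderm factor Cdx2 fell from 113 through 95.8 to 34.8 RPKM. The other trophectoderm markers differed less in ratio between dormant and reactivated blastocysts. Krt8 was at 105 and 80.4 RPKM, Krt18 at 807 and 624, Tfap2c at 18.7 and 13.45 and Eomes at 87.9 and 81.9. Of markers of other cells, 2 of 6 for uterine epithelium (summed 16.1 to 36.9 RPKM, mostly Wfdc2), 1 of 4 for uterine stroma (0.97 to 3.58), 3 of 5 for immune cells (4.89 to 18.7) and none of 4 for red blood cells (0.50 to 0.66) reached 1 RPKM. Hba-a1 was at 0 in every library. The summed levels of the trophectoderm, primitive endoderm and all 4 lists of other cells were lowest in the reactivated library, where the replication genes were highest, and their part in these results was not tested.

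Replication genes were higher 12 h after E2 and little changed in the first 6 h. A gene counted as having risen or fallen when log2((RPKM + 1)/(RPKM + 1)) was at least 1 in size and the higher of the libraries reached 1 RPKM. This is a rule of size and not a test. In reactivated against dormant blastocysts 8 of the 47 measured genes rose (Cdc45, Cdc6, Mcm10, Fen1, Orc2, E2f3, Orc6 and Mcm5) and none fell. Over all protein-coding genes 3.63% rose and 5.53% fell. The median difference of the 47 was 0.62 on the log2 scale, beside -0.07 for the 9948 protein-coding genes tested, and 46 of 47 lay above 0, beside 45.1% of protein-coding genes. Cdt1 was the exception. The exact binomial interval of the ratio of reads, which covers counting error only, lay above 1 for 41 members (protein-coding genes 30.7%) and below 1 for 1 member (39.4%).

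At 6 h the calls and the median were near the background. None of the 47 rose or fell, beside 0.683% and 0.291% of protein-coding genes, and the median was 0.13 beside 0.07. The difference was above 0 for 34 of the 47 (protein-coding genes 59.8%), its ratio interval lay above 1 for 19 (30.3%) and below 1 for 4 (16.0%). Medians by role ran from -0.16 for MCM loading and its inhibitor to 0.37 for origin firing. Of the 8 firing genes 6 had a 6 h ratio interval above 1 and 1 below 1. From 6 h to 12 h, 5 genes rose (Cdc6, Cdc45, Mcm10, E2f3 and Mcm5) and none fell, beside 2.44% and 6.60% of protein-coding genes, with a median of 0.52 beside -0.13. In that interval 43 of 47 lay above 0 (40.0%), 37 had a ratio interval above 1 (26.8%) and 2 below 1 (44.0%). Scaling the libraries by the median ratio of all genes moved the protein-coding median from -0.13 to -0.02 and the number of members that rose in this comparison from 5 to 9 (Fen1, Mcm3, Mcm4 and Orc2 were added), with 3.47% of protein-coding genes higher and 4.91% lower. With that scaling 0.555% were higher and 0.373% lower at 6 h. The 3 comparisons share libraries and are not independent of each other. In RNA from whole blastocysts, a change in the number of replicating cells and a change of RNA per cell cannot be told apart.

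**Figure D1:**
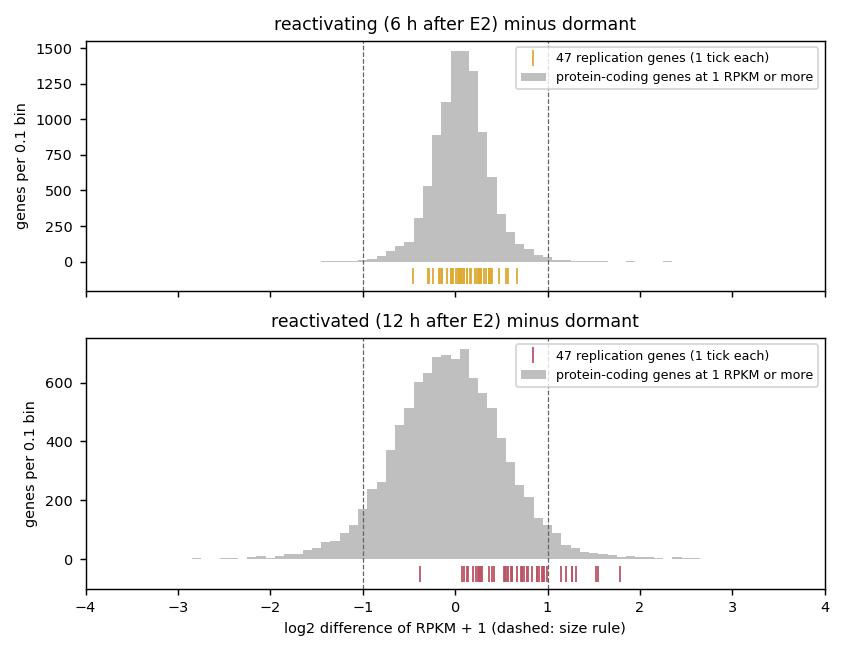
Log2 differences of RPKM + 1 from the dormant library (x axis) for protein-coding genes at 1 RPKM or more (grey bars, genes per bin) and for the 47 measured replication genes (ticks), at 6 h (top) and 12 h (bottom). Dashed lines mark the size rule of 1, which no member passed at 6 h and 8 passed at 12 h, and 46 of 47 ticks lie above 0 at 12 h.

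Of the MCM helicase genes Mcm2, Mcm5 and Mcm6 held the 3 highest levels of the set per exon length in each library. Mcm2 (ENSMUSG00000002870, GRCm38 chromosome 6, 88883474 to 88898780) led in dormant blastocysts with 51.8 RPKM (95% Poisson interval 49.7 to 53.9), and stood at 56.9 in reactivating and 69.6 in reactivated blastocysts. Mcm5 (ENSMUSG00000005410, chromosome 8, 75109569 to 75128439) was at 31.8, 35.02 (33.2 to 36.9) and 71.6 RPKM (69.3 to 74.0). It was the subunit that rose, with a read ratio of 2.25 (binomial interval 2.11 to 2.41), and it took first place in the reactivated library. Mcm4 lay just under the rule at 12 h with a log2 difference of 0.99, at 23.2, 23.7 and 46.96 RPKM. Mcm3 was at 19.0, 18.6 and 36.0 RPKM.

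Mcm6 was at 45.3, 40.3 and 67.4 RPKM, so that its 6 h value was below the dormant one (ratio 0.889, 0.832 to 0.949). Mcm7 had the lowest level of the 6 subunits in each library, with 8.99, 9.68 and 14.9 RPKM. All 6 subunit genes had a 12 h ratio interval above 1, beside 30.7% of protein-coding genes. Although the 6 proteins form a ring with each subunit once, the RNA levels differed 5.76 times between the highest and the lowest subunit in dormant, 5.88 times in reactivating and 4.81 times in reactivated blastocysts. Mcm7 holds the microRNA genes Mir25, Mir93 and Mir106b on the same strand.

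Of the 6 origin recognition complex genes 2 rose at 12 h and 4 stayed under the rule. Orc2 (ENSMUSG00000026037, chromosome 1, 58462771 to 58505109) rose from 10.9 RPKM (9.82 to 12.0) in dormant through 13.2 to 27.4 (26.0 to 28.9) in reactivated blastocysts, a ratio of 2.53 (2.26 to 2.83). Orc6 (ENSMUSG00000031697, chromosome 8, 85299632 to 85308278), the smallest subunit, rose from 14.5 (12.8 to 16.3) through 19.1 to 34.6 RPKM (32.3 to 37.0). Orc1, the subunit known to be removed from chromatin and degraded in S phase in some mammalian cells, was at 6.25, 6.02 and 11.2 RPKM, and Orc4 at 5.36, 5.55 and 9.46, both under the rule. Orc3 was at 17.5, 14.6 and 21.4 RPKM and Orc5 at 7.15, 6.68 and 8.68, with 12 h ratios of 1.23 (1.10 to 1.36) and 1.21 (1.02 to 1.45). Orc5 overlaps an annotated pseudogene on its own strand, so its value is less certain. Orc2, which rose, overlaps Gm23966 on its own strand, so its reads may be shared too.

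Of the helicase loaders Cdc6 rose at 12 h while Cdt1 had a lower level than in dormant blastocysts. Cdc6 (ENSMUSG00000017499, chromosome 11, 98907801 to 98923940), the ATPase that loads MCM together with the origin recognition complex, was among the lowest members in the first 2 states, at 1.40 RPKM (1.13 to 1.72, 93 reads) and 1.15 (0.922 to 1.43, 85 reads). It reached 6.04 RPKM (5.54 to 6.57, 538 reads) in reactivated blastocysts, a ratio of 4.30 to dormant (3.45 to 5.42). The dormant and reactivating intervals overlapped, and the reactivated one lay above both. Cdt1 (ENSMUSG00000006585, chromosome 8, 122568015 to 122573554), the partner of CDC6 in loading, was at 8.57 RPKM (7.57 to 9.67), 6.81 (5.97 to 7.75) and 6.35 (5.61 to 7.17). It was the sole member whose level was highest in dormant blastocysts, and its 12 h ratio of 0.741 (0.622 to 0.882) lay below 1 by counting error while its difference of -0.38 did not pass the rule. Cdt1 overlaps Gm20388 on its own strand, so its reads may be shared. The same limit holds for 12 members. Besides Cdt1, Orc2, Orc5 and Mcm7 they are Pola1, Prim2, Pold1, Pole, Pole2, Rfc1, Rpa1 and Chaf1b. Gmnn, which encodes geminin, the inhibitor that holds CDT1 back outside licensing, was at 13.01, 13.99 and 21.98 RPKM. Its level was 0.71 above dormant at 12 h on the log2 scale, so that Gmnn and Cdt1 differed in direction.

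**Figure D2:**
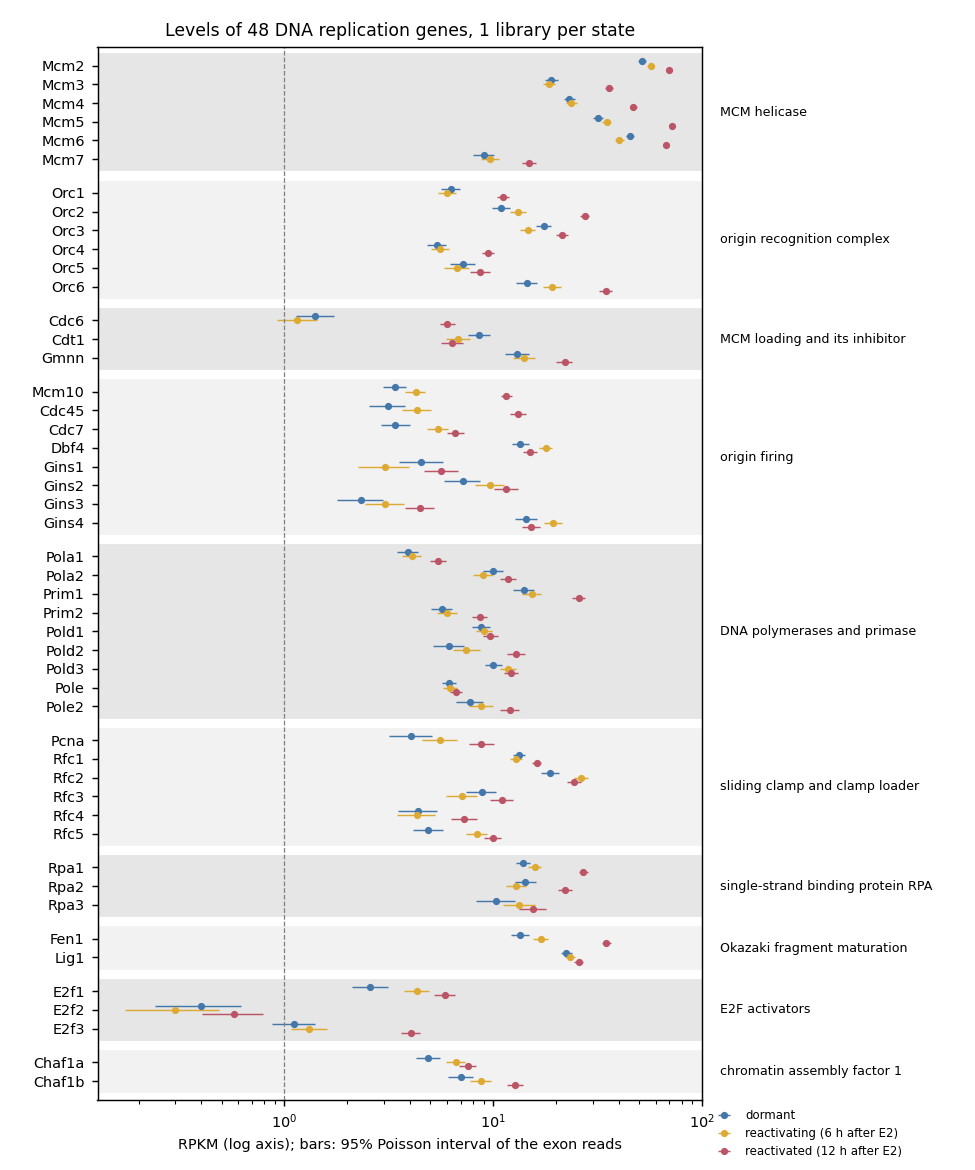
Levels of the 48 genes in RPKM (x axis, log scale) in the 1 library of each state, grouped by role, with 95% Poisson intervals of the exon reads as bars and a dashed line at 1 RPKM. The reactivated library (red) is highest for 43 of the 47 measured genes, a count not made over all genes. Of protein-coding genes 45.1% are higher in it than in the dormant and 40.0% than in the reactivating library. E2f2 lies below 1 RPKM in each library.

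Cdc45 and Mcm10 of origin firing were among the 3 largest log2 differences at 12 h, with Cdc6, while by read ratio E2f3 (3.63) stood above Mcm10 (3.43). Cdc45 (ENSMUSG00000000028, chromosome 16, 18780447 to 18811987), a part of the active helicase, was at 3.12 RPKM (2.54 to 3.80), 4.31 (3.66 to 5.06) and 13.2 (12.1 to 14.3). Its log2 difference of 1.78 at 12 h was first among the members, with a ratio of 4.21 (3.40 to 5.27). Mcm10 (ENSMUSG00000026669, chromosome 2, 4989714 to 5012791), which acts when the helicase is switched on, was at 3.37 (2.96 to 3.83), 4.25 (3.80 to 4.73) and 11.6 RPKM (10.9 to 12.3). Both genes had 12 h intervals far above the other states, and 6 h ratio intervals just above 1 (1.07 to 1.80 for Cdc45 and 1.06 to 1.49 for Mcm10).

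Other firing genes moved less or peaked earlier. Cdc7, the kinase that phosphorylates MCM, was at 3.40, 5.42 and 6.60 RPKM, and most of its difference was present at 6 h (ratio 1.59, 1.30 to 1.95). Dbf4, its activator, was at 13.5, 17.8 and 15.01 RPKM and thus highest at 6 h, with a 12 h ratio to dormant of 1.11 (0.985 to 1.25). Of the GINS complex, Gins4 had the same order, at 14.4, 19.3 and 15.1 RPKM. Gins2 was at 7.14, 9.65 and 11.6 and Gins3 at 2.32, 3.03 and 4.45 RPKM. Gins1 was at 4.53, 3.02 and 5.62 RPKM, lowest at 6 h. In the deposited RPKM, Dbf4, Gins4 and Rfc2 were the 3 measured members with their highest level in the reactivating library. The ratio of 12 h to 6 h had an interval below 1 for Dbf4 (0.756 to 0.938) and Gins4 (0.680 to 0.903). For Rfc2 it was 0.931 (0.832 to 1.04), which includes 1.

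No DNA polymerase or primase gene passed the rule at 12 h, and all 9 lay above 0, with a median of 0.40. Prim1, the catalytic subunit of primase, was at 14.0, 15.4 and 25.7 RPKM and Prim2, its larger partner, at 5.67, 6.02 and 8.64. Of polymerase alpha, which extends the primers, Pola1 was at 3.90, 4.08 and 5.45 RPKM and Pola2 at 9.97, 8.95 and 11.8. Pold2, an accessory subunit of the lagging-strand polymerase delta, came closest to the rule with 0.95, at 6.15 (5.16 to 7.28), 7.45 and 12.8 RPKM (11.6 to 14.2). The catalytic subunits of delta and epsilon had the smallest differences of the 9. Pold1 was at 8.77, 9.07 and 9.67 RPKM and Pole at 6.14, 6.20 and 6.66, with 12 h ratios of 1.10 (0.973 to 1.25) and 1.08 (0.979 to 1.20) whose intervals include 1. Pold3 was at 10.02, 11.8 and 12.2 RPKM and Pole2 at 7.73, 8.73 and 12.0.

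Genes of the clamp, its loader and single-strand binding were higher at 12 h and under the rule. Pcna, the sliding clamp that tethers polymerases to DNA, was at 4.05 RPKM (3.17 to 5.10, 72 reads), 5.57 (4.58 to 6.71) and 8.79 (7.64 to 10.1, 210 reads), a log2 difference of 0.96 at 12 h. The annotation names 2 pseudogenes after Pcna, so reads may be shared with them and its level is uncertain. Of the loader subunits Rfc5 differed most at 6 h, at 4.88, 8.35 and 9.93 RPKM, with a 6 h ratio of 1.71 (1.40 to 2.10) and a log2 difference of 0.67, the highest of the 47 members. Rfc2 was at 18.8, 26.4 and 24.5 RPKM, with a 6 h ratio of 1.41 (1.23 to 1.60), and Rfc4 at 4.37, 4.31 and 7.28. Rfc1, the large subunit, was at 13.3, 12.9 and 16.2 RPKM and Rfc3 at 8.80, 7.08 and 11.0. The 3 subunits of RPA, which coats single-stranded DNA, were close to each other in level. Rpa1 was at 14.0, 15.8 and 27.1, Rpa2 at 14.3, 12.9 and 22.1 and Rpa3 at 10.4, 13.3 and 15.5 RPKM.

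Joining of lagging-strand fragments was split between its 2 enzymes. Fen1 (ENSMUSG00000024742, chromosome 19, 10199132 to 10204169), the flap nuclease, rose from 13.5 RPKM (12.2 to 14.8) through 16.98 (15.6 to 18.4) to 34.8 (33.1 to 36.6), a ratio of 2.59 (2.32 to 2.89). Lig1, the ligase that seals the nick, was at 22.5, 23.4 and 25.7 RPKM, a ratio of 1.15 (1.06 to 1.24). The order of the 2 levels thus turned between the states, with Lig1 above Fen1 in dormant and below it in reactivated blastocysts. The 2 subunits of chromatin assembly factor 1, which places histones on new DNA, stood at 4.88, 6.61 and 7.55 RPKM for Chaf1a and 7.02, 8.73 and 12.8 for Chaf1b.

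**Figure D3:**
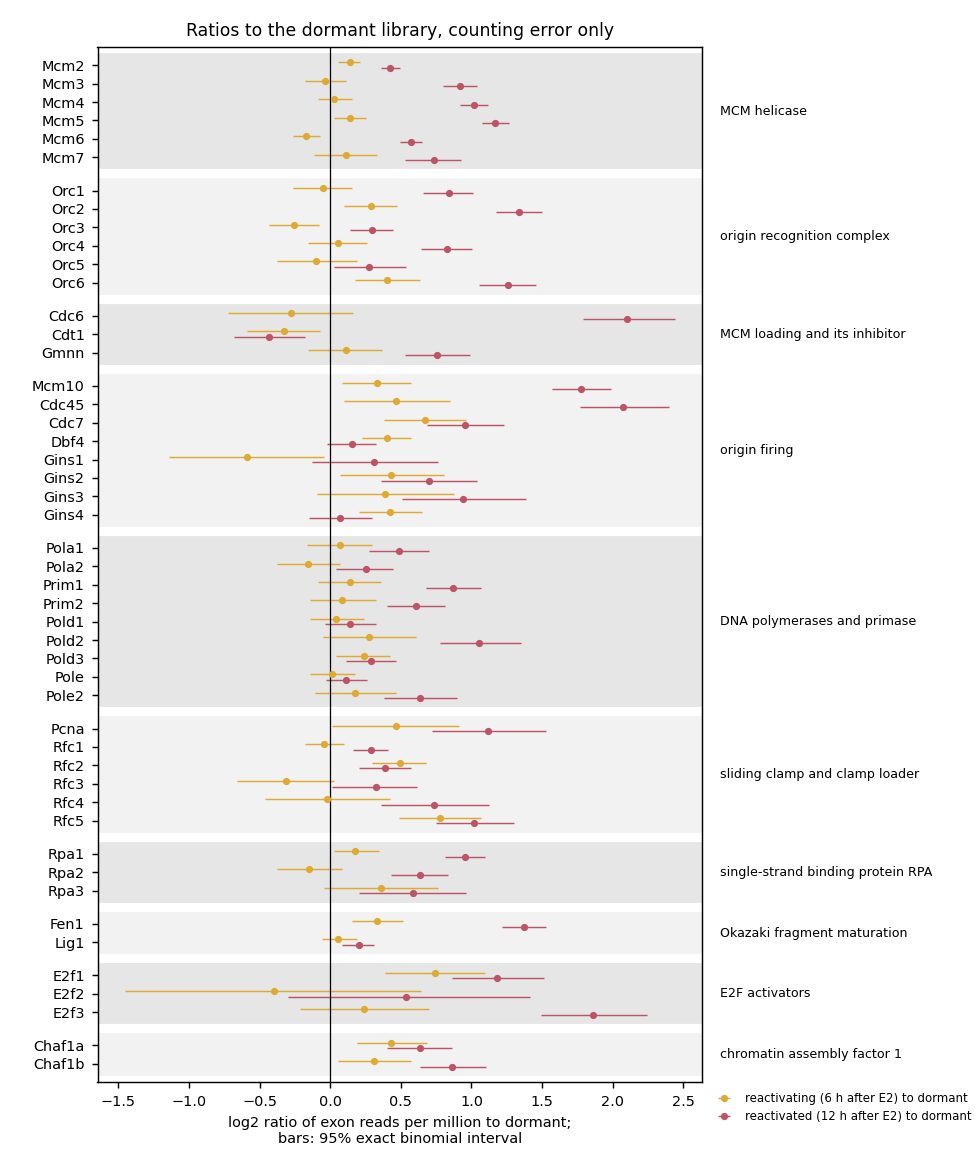
Log2 ratio of exon reads of the reactivating (yellow) and reactivated (red) library to the dormant library for the 48 genes by role. Reads are scaled to the totals implied by the RPKM, and bars are 95% exact binomial intervals that cover counting error only. At 12 h the interval lies above 0 for 41 of the 47 measured genes and below 0 for Cdt1 alone.

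The E2F activators were low in level. E2f3 (ENSMUSG00000016477, chromosome 13, 29906575 to 29986063) was at 1.11 RPKM (0.874 to 1.40, 74 reads), 1.31 (1.07 to 1.60, 97 reads) and 4.04 (3.63 to 4.48, 361 reads), and it rose by the rule with a ratio to dormant of 3.63 (2.82 to 4.73). E2f1, the founding activator, was at 2.58 (2.11 to 3.12), 4.30 (3.72 to 4.95) and 5.86 RPKM (5.23 to 6.53), with no overlap of its dormant interval with the later ones and a log2 difference of 0.94 under the rule. E2f2 had 19, 16 and 37 exon reads, that is 0.40, 0.30 and 0.57 RPKM, too few for a comparison.

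E2F proteins bind sites with the letters TTTCCCGC, TTTCGCGC, TTTGCCGC or TTTGGCGC, and these 4 words were searched on both strands of RefSeq promoters (GRCm38.p6, 250 bases before to 50 after each start). Promoters were found for 40 of the 48 genes (51 promoters), and 17 of the 40 genes held a match (42.5%). A match was held by 2.60% of the 27025 genes with a promoter in the table and by 5.14% of the 8079 protein-coding genes at 1 RPKM or more in a library. The median GC content was 62.6% for the members' promoters, 52.8% over all genes and 61.3% over those protein-coding genes. At least 2 separate stretches were held by 4 members (Mcm3, Mcm6, Mcm7 and Rfc3), 4 of the 40, beside 0.235% of the protein-coding genes at 1 RPKM or more. The windows below, 30 bases each on the gene's strand, are shown for the matched genes that rose (Mcm5, Cdc6 and E2f3), for Mcm6 and Orc1 of the licensing complexes, and for Cdt1, the gene that was lower. Capitals mark the matched letters, and in Mcm5 and Mcm6 matches on the 2 strands overlap in 1 stretch of 12 bases.
Mcm5 (chr8:75109347-75109376, + strand, 153 bases before the start): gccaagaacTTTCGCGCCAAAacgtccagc
Mcm6 (chr1:128359795-128359824, - strand, 110 bases before the start): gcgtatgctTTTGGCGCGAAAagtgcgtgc
Cdc6 (chr11:98908002-98908031, + strand, 138 bases before the start): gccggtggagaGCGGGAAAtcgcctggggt
E2f3 (chr13:29986056-29986085, - strand, 11 bases before the start): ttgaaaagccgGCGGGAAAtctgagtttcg
Orc1 (chr4:108579416-108579445, + strand, 27 bases before the start): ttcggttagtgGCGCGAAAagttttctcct
Cdt1 (chr8:122568035-122568064, + strand, 32 bases after the start): gggaactaccttTTTGGCGCcatggcgcaa

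Genes with and without a match overlapped in their differences. Of the 16 measured members with a match 3 rose at 12 h, and of the 23 members with a promoter and no match 5 rose (Orc2, Orc6, Mcm10, Cdc45 and Fen1). The median log2 differences of these groups were 0.56 (range -0.38 to 1.55) and 0.79 (0.14 to 1.78). These are matches of letters in a fixed window and not measured binding. No match says only that the letters are not in that window.

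**Figure D4:**
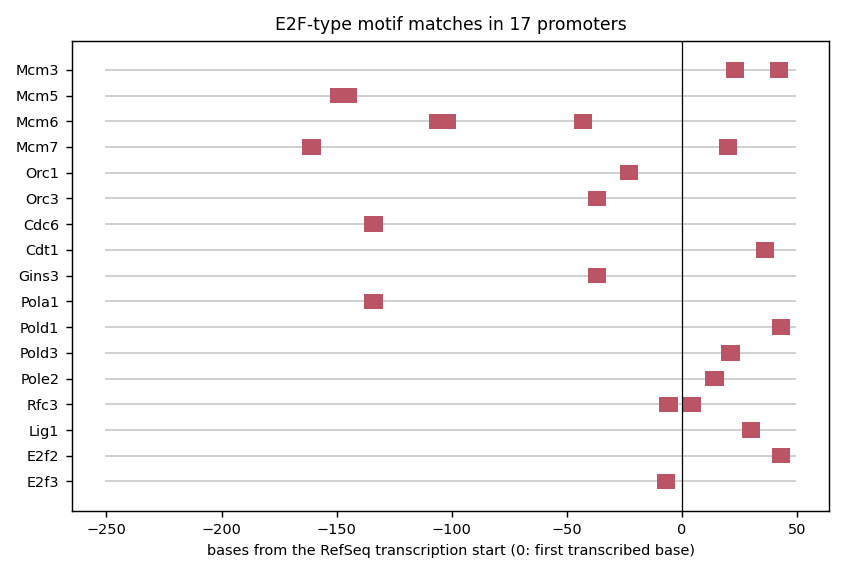
Positions of the E2F-type matches (bars) from the RefSeq transcription start (x axis, bases) in the promoters of the 17 members that hold one. Grey lines span the 300 bases searched, and Mcm3, Mcm6, Mcm7 and Rfc3 each hold 2 stretches.

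Reads in introns, which can come from RNA not yet spliced, gave a second readout from other reads of the same libraries. The 48 genes had 6134, 6363 and 10707 intron reads in the dormant, reactivating and reactivated states. Intron reads were 23.9%, 21.4% and 19.9% of their exon and intron reads, beside 36.2%, 32.2% and 32.4% over protein-coding genes. Reads across exon junctions, a mark of spliced RNA, came to 334, 346 and 559 CPM (counts scaled to the reads in genes of each library) for the set, 0.465%, 0.437% and 0.751% of all junction reads. An intron level was called changed when the ratio of intron CPM, with 1 read added to each count, was at least 2 times, among genes with 20 intron reads in the pair of libraries. All 48 members met that minimum.

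At 12 h, 13 members rose and none fell in intron reads, beside 10.6% and 6.27% of protein-coding genes. Above 0 lay 42 of 48 members, beside 6186 of 12719 protein-coding genes. The intron median was 0.69 beside -0.02 for protein-coding genes. At 6 h, 1 rose (Rfc3) and none fell (8.45% and 2.06% of protein-coding genes), and the median was 0.04 beside 0.08. From 6 h to 12 h, 13 rose and none fell (4.81% and 7.71%), with a median of 0.57 beside -0.11. With median-ratio scaling 17 members rose at 12 h and 13 from 6 h to 12 h, and none fell. With it 13.1% of protein-coding genes were higher and 4.69% lower at 12 h, and 6.69% and 5.68% from 6 h to 12 h. With a minimum of 50 intron reads the shares were 4.42% and 1.33% at 6 h, 6.84% and 6.06% at 12 h and 2.88% and 6.38% from 6 h to 12 h, and the members called were 1, 13 and 13, all higher. Cdc45, Cdc6, Mcm10 and Mcm5 rose at 12 h in both exon and intron reads. They are 50.0% of the 8 members that rose in exons and 30.8% of the 13 that rose in introns. The same overlap was not counted over protein-coding genes, so these shares have no background here.

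The roles differed in how exon and intron values went together. For the MCM helicase the 12 h medians were 0.78 in exons and 0.73 in introns, and Mcm3 and Mcm5 rose in introns, Mcm5 from 7.76 through 8.93 to 20.4 CPM. For the origin recognition complex they were 0.73 and 0.03, and 3 of its 6 genes lay below 0 in introns. Over protein-coding genes 6533 of 12719 lay below 0 in introns at 12 h. Orc1 introns were at 16.8, 13.5 and 14.9 CPM while its 12 h exon ratio was 1.79 (1.58 to 2.02). Orc2 introns were at 14.6, 11.7 and 19.2 CPM, a ratio of 1.32 (1.10 to 1.58) beside 2.53 in exons. For E2f3 the intron ratio was 1.52 (1.28 to 1.81) and the exon ratio 3.63. Whether these intron and exon values differ between roles has no test here, since each state is 1 library.

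Pcna and Rfc3 had the largest intron differences. Pcna introns had 44, 30 and 241 reads, that is 3.41, 2.16 and 14.2 CPM, a 12 h ratio of 4.16 (3.01 to 5.88) beside 2.17 (1.65 to 2.88) in exons. Rfc3 introns had 16, 84 and 164 reads, a ratio of 4.87 (2.83 to 8.91) at 6 h and 7.79 (4.65 to 13.9) at 12 h, while its exon ratios were 0.805 (0.633 to 1.02) and 1.25 (1.01 to 1.53). Both genes thus had more intron reads relative to exon reads at 12 h, with 53.4% of Pcna reads and 39.3% of Rfc3 reads in introns, against 37.9% and 9.58% in dormant blastocysts. The tables give no positions within introns. Pcna is 3894 bases long in the tables and 4153 in GENCODE M21, and Rfc3 8385 and 8487, so the part of the gene models in these values was not tested. E2f1 (ratio 3.01, 1.94 to 4.82), Cdc7 (2.47), Chaf1a (2.23) and Rfc4 (2.12) also rose in introns while their exon differences stayed under the rule. So did Rpa3 (2.60), from 12 intron reads in dormant to 41 in reactivated blastocysts. E2f2, not measured in exons, rose in introns (2.75) from 13 to 47 reads. Both rest on few reads.

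**Figure D5:**
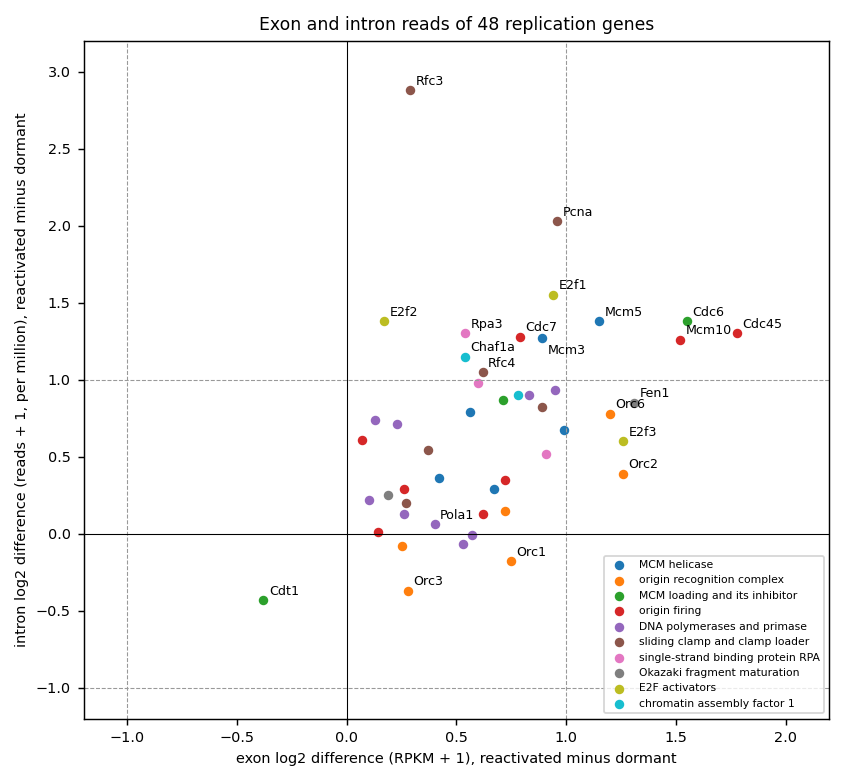
Log2 difference of reactivated minus dormant in exon level (x axis, RPKM + 1) and in intron level (y axis, CPM of reads + 1) for the 48 genes, coloured by role, with the size rule dashed. Cdc45, Cdc6, Mcm10 and Mcm5 pass in both, Pcna and Rfc3 stand highest in introns, and Cdt1 is the sole gene below 0 in exons.

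Other genes of replication, 80 in 6 lists, held 14 that rose and 2 that fell at 12 h among 77 measured, with a median of 0.31, beside 3.63% higher, 5.53% lower and a median of -0.07 over protein-coding genes. At 6 h none of 76 rose or fell, beside 0.683% and 0.291%. Cyclin E, which with CDK2 drives entry into S phase, had the largest rises, Ccne1 at 2.59, 3.02 and 17.5 RPKM and Ccne2 at 2.07, 2.15 and 11.8, in a list of other licensing and firing factors where 3 of 17 rose. Ccna2, cyclin A of S phase, rose from 10.3 to 24.3 RPKM in that list, and Ciz1, a nuclear partner of cyclins E and A, fell from 8.89 to 3.70. Among 13 genes of fork protection and the S-phase checkpoint Tipin rose, at 14.3, 21.8 and 47.6 RPKM. Among 14 other synthesis factors the nuclease Dna2 (2.12 to 6.35 RPKM) and the topoisomerase Top2a (12.8 to 27.5) rose, and Pold4, the smallest subunit of polymerase delta, fell from 5.54 to 1.27 RPKM. Pold4 was thus opposite to Pold2 of the same enzyme.

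Of 11 measured chromatin factors 4 rose. The histone chaperone Asf1b was at 2.22, 3.35 and 9.69 RPKM, Uhrf1, which guides maintenance DNA methylation, at 8.31, 12.8 and 20.8, the histone acetyltransferase Hat1 at 18.3, 24.5 and 39.3 and Rbbp4, the histone-binding partner of the chromatin assembly factor, at 37.1, 53.8 and 78.3. Of 14 E2F repressors, RB family genes and partners, E2f8, an atypical repressor, rose from 3.91 through 4.13 to 13.9 RPKM and Tfdp1, the dimer partner of E2F proteins, from 3.42 through 5.34 to 8.53. Lin52, counted in that list, was matched by symbol to an ID that GENCODE M21 does not hold. Its exon and gene lengths are both 580 bases and it had no junction reads, so its identity is uncertain. Of 8 genes for breakdown of licensing factors 2 rose. Dtl, the receptor that sends CDT1 to the ubiquitin ligase on PCNA, was at 5.02, 5.25 and 15.96 RPKM, and Fbxo5, an inhibitor of the anaphase-promoting complex that spares geminin, at 3.85, 3.61 and 11.2.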

How the data were processed

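RNA was depleted of ribosomal RNA and read on the SOLiD platform in 50 bp single-end runs, per the labels' protocols. The deposited counts are whole reads per gene in exons, introns, junctions and on the opposite strand, per the file headers. The deposited RPKM was computed by the authors and matched exon reads, exon length and implied totals of 14118723, 15687239 and 18982195 reads within 2% or 0.011 RPKM, with 1 exception that is no member. The build is GRCm38, per the submitters' processing notes. Aligner, counter: not given in the sources used here. Coordinates came from GENCODE M21 (GRCm38), which held 84.7% of the IDs, and promoters from RefSeq (GRCm38.p6). Intron reads were scaled to reads in exons, introns or both. Members, lists and rules were chosen with earlier results of these data known. All 48 members are reported, and other genes are named where they passed the rule at 12 h, up to 6 a list. The size rules were checked on simulated counts that held counting error alone, so the check does not cover differences between pools. No test, SD or p-value was possible with 1 library a state. The 95% intervals show counting error alone. They may be too narrow even for that, since reads that carry no molecular identifiers may be copies of 1 molecule. Alternatives changed the pseudocount, minimum, unit, scaling and threshold. Python 3.11.15, SciPy 1.17.1 and pandas 2.3.3 were used.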

Additional observations from a re-analysis of the deposited data

Results flagged for a closer look

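Reads on the opposite strand, which no comparison above uses, outnumbered exon reads for 2 members. Rfc4 had 95 opposite-strand and 84 exon reads in dormant blastocysts, and it overlaps Eif4a2 on the other strand. E2f2 had 24 opposite-strand reads beside 19 exon reads in dormant and 81 beside 16 in reactivating blastocysts, and no annotated gene overlaps it. The limit a count of 0 allows is 3 reads, and the source of these reads was not tested.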

How the results depend on the processing

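No member fell in exon reads under any of the 7 alternatives in any comparison. In reactivated against dormant blastocysts 8 members rose. Under the other minimums, units and scalings 7 to 11 rose, beside 1.84% to 4.57% of protein-coding genes higher and 2.81% to 10.6% lower. The 11 came with median-ratio scaling (4.25% higher, 4.90% lower). A pseudocount of 0.1 RPKM gave 13 (protein-coding genes 5.85% higher, 11.1% lower) and a threshold of 1.5 times gave 26 (12.3%, 18.1%). The 0.1 RPKM pseudocount added Mcm4, Pcna, Pold2, E2f1 and Rfc5. From 6 h to 12 h the count of 5 became 9 with median-ratio and 9 with upper-quartile scaling (3.47% and 3.25% higher), and 20 at 1.5 times (9.45%). At 6 h, 1 member (Rfc5) passed at 1.5 times (4.64%). In introns 1.5 times gave 5 of 48 higher and 5 lower at 6 h (protein-coding genes 19.5% and 7.16%), 27 higher at 12 h (21.9%) and 24 from 6 h to 12 h (12.7%). Mcm5 stood at 0.98 from 6 h to 12 h in exon CPM, here scaled to the exon reads of each library. Higher genes were 70.1% of the protein-coding genes called at 6 h, 57.9% with upper-quartile scaling and 84.9% at a minimum of 5 RPKM, and 26.9% from 6 h to 12 h, 41.4% with median-ratio scaling. Intron calls from 6 h to 12 h were 38.4% higher, and 54.1% with median-ratio scaling, and at 12 h 62.8% and 73.6%. The protein-coding counts of 68 higher and 29 lower at 6 h were 219 and 128 with the 0.1 RPKM pseudocount, 180 and 80 in exon CPM and 45 and 8 at a minimum of 5 RPKM. The 361 higher and 550 lower at 12 h were 582 and 1100, and 503 and 1170, and the 243 higher and 659 lower from 6 h to 12 h were 437 and 1205, and 400 and 1340, with the same pseudocount and in exon CPM. The cause of these shifts was not tested. E2f2 (16 to 37 exon reads) and the introns of Fen1 (10 to 44), Rpa3 (12 to 41) and Pold2 (14 to 44) are limited by depth. No paired analysis was possible because each state is 1 library.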
